A study of Mus musculus and Miniopterus natalensis with 16 samples.

Results

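The forelimb (FL) autopod of the Natal long-fingered bat, Miniopterus natalensis, at Carollia stage 16 (CS16) was set against mouse FL autopod on 4 of the 16 arrays in the series. All 4 arrays labelled as CS16 bat FL were taken, and each of them carried the FL RNA of a different bat embryo. The mouse RNA on every array came from a single pool of E13.5 handplates from 24 Mus musculus embryos. Per the labels, each biological repeat had its own amplification of this pool. The other 12 arrays held the CS16 hindlimb (HL), the CS17 FL and the CS17 HL of the bat against the same pool, with 4 arrays in each group. They enter here only where the CS16 FL is compared with them.

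The autopod is the hand or foot plate of the limb bud, in which digits and the tissue between them form. In the bat FL the digits that carry the wing lengthen and the webbing between them is kept, while the bat HL and the mouse limb form short, free digits. CS16 is the younger of both bat stages on the arrays. The embryos came from wild pregnant females, with no treatment, and the left and right plates of 1 embryo were pooled. Limbs were cut at the future wrist or ankle, which left out the upper and lower limb and the membranes beside them. The mouse embryos of the pool were of the ICR strain. In whole plates, more cells of a type and more RNA per cell cannot be told apart.

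Each array was a spotted set of mouse oligonucleotides (Operon Mouse OpArray), so bat RNA was read with mouse probes. Bat RNA was labelled with Cy3 and the mouse pool with Cy5 throughout, and dyes were never exchanged. Species, dye and the fit of bat sequence to a mouse probe therefore cannot be told apart in the ratio of a single feature. The study treats CS17, not CS16, as the bat stage equivalent to E13.5. Stage is thus a further difference that the CS16 ratios cannot separate from species. The tests used a spread between bat arrays that was pooled over all 4 bat groups, and they held no spread between mouse embryos.

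The deposited ratios carry no stated base, direction or centring. Base and direction were taken from the rounded folds that the study lists for 35 probes. Read as log2 with the sign turned, 33 of them had a feature whose 3 folds each came within 0.05 of the listed value. Without turning the sign there were 4. A positive value below therefore stands for more signal from the bat. The direction is likely, not stated, and the sample labels, which describe bat levels relative to the pool, would exchange higher and lower throughout. Centring remains unknown.

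Of 37440 features on the array, 13988 (37.4%) had a value, and each of these had one on all 16 arrays. Rows that repeat one another on all arrays were merged, which left 12656 features. Across features, any 2 of the 16 arrays correlated between 0.841 and 0.963, and any 2 of the 4 CS16 FL arrays between 0.923 and 0.962. Features carry numbers and no gene names. Signal over background was not used here, so the number of arrays is the limit on precision that can be given.

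In the CS16 bat FL, 9299 of 12656 features (73.5%) had a ratio to the mouse pool that differed from 0 in limma at an adjusted p under 0.05. The bat signal was higher at 4166 (32.9%) and lower at 5133 (40.6%). Most of these differences were small, and 4718 of the called features had a fold under 1.5. The median size of the log2 ratio over all features was 0.42, a fold of 1.34. For a mean of n = 4 arrays, with the spread pooled over all 16, the standard error had a median of 0.09. The 95% interval had a median width of ± 0.19. The smallest size that was called was 0.14 and the largest that was not called was 0.60.

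Large differences leaned the other way. At an adjusted p under 0.01 and more than 2-fold, 1915 features (15.1%) were called, with 1464 (11.6%) on the higher side and 451 (3.56%) on the lower. Higher features thus made up 76.4% of the calls with a fold minimum, against 44.8% of the calls without one. The p threshold removed no feature that was past 2-fold. All 1915 had the same sign on all 4 arrays. Among all 12656 features, 35.7% were above 0 on every CS16 FL array and 44.7% below 0 on every one. With arrays centred on their median, higher features made up 82.6% of the calls with a fold minimum and 50.6% of those without one. The calls without a fold minimum were then 4676 higher and 4558 lower, so the lean to the lower side depends on centring.

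The excess of higher features grew with the fold. Mean ratios passed 4-fold at 215 features that were higher in the bat and at 7 that were lower, and passed 8-fold at 31 higher and 0 lower. At 16-fold 6 features remained on the higher side. On every one of the 4 arrays separately, 1034 features were past 2-fold on the higher side and 222 on the lower side. The mean ratios ran from -2.77 to 4.81, with a median of -0.07, a mean of 0.06 and quartiles of -0.43 and 0.41. The central 95% of features lay between -1.09 and 1.80, so the upper tail was the longer one.

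**Figure D1:**
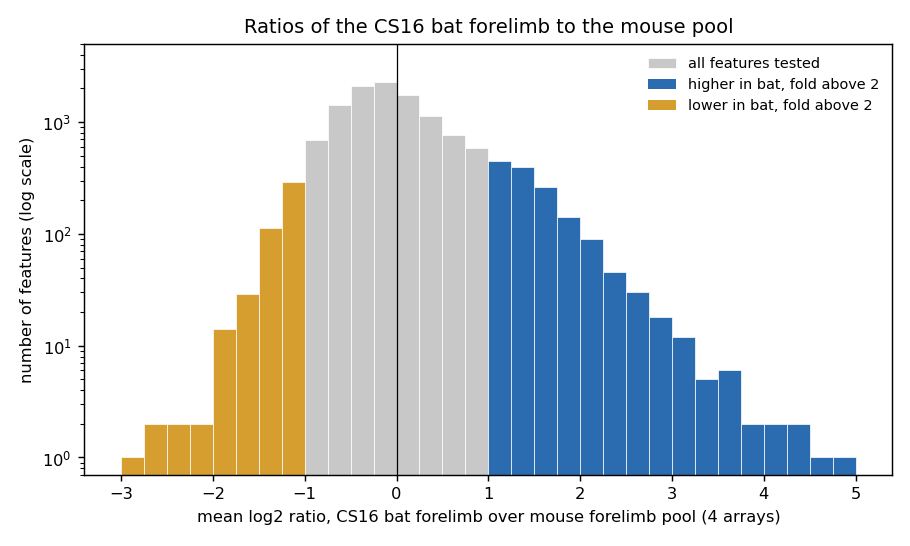
Number of features (log scale) by mean log2 ratio of the CS16 bat FL over the mouse FL pool, with the mean taken over 4 arrays. Grey bars count all 12656 features and coloured bars the 1464 higher and 451 lower ones with a fold above 2. The upper tail reaches 4.81 and the lower tail -2.77.

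The arrays differed in how many features they put past 2-fold. On replicate 1 there were 1608 higher and 528 lower, on replicate 2 there were 1416 and 548, on replicate 3 there were 1234 and 488, and on replicate 4 there were 1758 and 506. Higher features outnumbered lower ones on all 4 arrays. The spread of the ratios over features was smallest on replicate 3, with an SD of 0.702, and largest on replicate 4, with an SD of 0.791. Replicate 3 also had the lowest mean correlation with the other CS16 FL arrays, at 0.935, where the others had 0.947 to 0.953. The medians of the 4 arrays were -0.08, -0.10, -0.06 and -0.04 in order of replicate number.

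**Figure D2:**
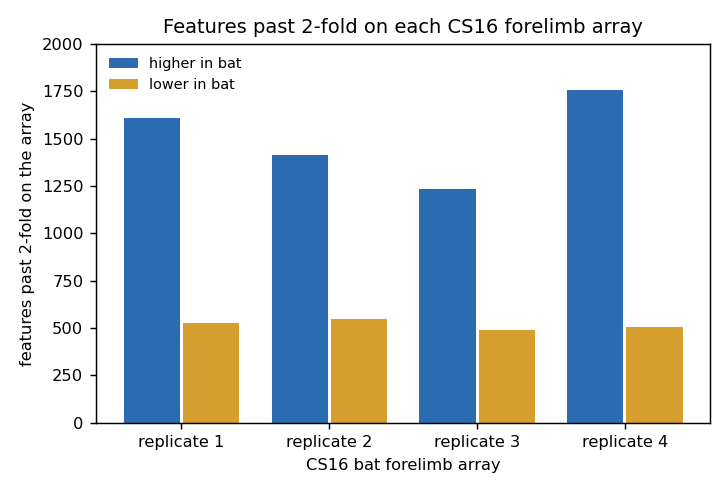
Number of features past 2-fold on each of the 4 CS16 bat FL arrays, with bars starting at 0. Blue bars (higher in the bat) run from 1234 to 1758 and yellow bars (lower in the bat) from 488 to 548.

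Precision varied with the size of the ratio. The SD over the 4 arrays had a median of 0.14 over all features. It was 0.13 where the ratio lay within 0.5 of 0 and 0.18 at the 31 features above 3. Among the features past 2-fold, the median ratio was 1.43 with a median SD of 0.19 on the higher side, and -1.18 with a median SD of 0.15 on the lower side. A sign-flip test of 1 feature over 4 arrays cannot give a two-sided p below 0.125, so single features rest on the spread that limma shares across features.

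The highest ratio belonged to feature 17580, with 4.82, 4.73, 4.52 and 5.15 on the 4 CS16 FL arrays. Its mean was 4.81 ± 0.26 (SD, n = 4), a fold of 28.0. The lowest belonged to feature 13797, with -2.33, -3.05, -2.76 and -2.92, a mean of -2.77 ± 0.31 and a fold of 6.80. Neither of these features came near 0 on any array. The 6 highest features had means from 4.04 to 4.81 and SDs from 0.11 to 0.26. The 6 lowest had means from -2.77 to -2.15 and SDs from 0.13 to 0.48. In the other bat groups the same 6 high features had means between 3.57 and 4.74, and the same 6 low ones between -3.11 and -1.91.

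Features that share identical values on all arrays formed 50 sets and held 1382 of the 13988 rows. The largest held 622 rows, with CS16 FL ratios of -0.19, 0.12, 0.10 and -0.13. The next held 384 rows, at -0.30, 0.14, 0.16 and -0.16, and the third 154 rows, at -0.32, -0.02, 0.00 and -0.17. The 384 rows stood exactly 8 to each run of 780 consecutive feature numbers. All 3 sets lay within 0.13 of 0 in the mean. Over the 48 runs of 780 numbers, the median CS16 FL ratio ranged from -0.18 to 0.00 and the share of features past 2-fold from 8.83% to 24.5%.

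Gene names could be given to 30 features. Each of these was the only feature whose CS16 FL over HL, CS17 FL over HL and CS17 FL over mouse folds lay within 0.05 of those listed for a probe of known name, and 10 of the names had been assigned to the probe by sequence alignment. The aligned names were Meis2, Gm10059, Casc1, 1700125D06Rik, Ajap1, Npm1, Prkcd, 4930428O21Rik, 1700047M11Rik and Rbm10. The CS16 FL ratio to the mouse was not used in the match. Other features within 0.2 of the matched feature's own folds, not of the listed ones, were also counted. Of the 30, 12 had no such other feature, 4 had 1 or 2 and 14 had 3 or more, up to 30. The number is given below as other candidates, and a name with many of them is weak. The study lists a similarity to sequence of another bat, Myotis lucifugus, for some probes only. It lists none for Gm10059, Syt13, Casc1, M400008298, BC049702, Ubr2, Ajap1, Prkcd and Sbsn. Nor does it for 4930428O21Rik, 1700047M11Rik, Tmc1, Hrk, Dab2, Olfr1303 and Rbm10. How well these probes fit bat sequence is unknown, also where there was no other candidate. The study picked the probes as top-ranked on these samples, so they are no sample of limb genes and no evidence of a direction. Hoxd11 is the only gene among them that marks the labelled tissue, and other markers of autopod, blood, muscle or skin were not analysed here.

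In the CS16 FL, 20 of the 30 matched features were higher than the mouse pool with an adjusted p under 0.05, 5 were lower and 5 were not called. Over all features 32.9% were higher and 40.6% lower. A fold above 2 was reached by 10 on the higher side and 4 on the lower side. The median ratio of the 30 was 0.60, against -0.07 over all features, and they ranged from -1.45 to 2.29. Among the 12 with no other candidate, 8 were higher, 3 lower and 1 was not called, with a median of 0.82.

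**Figure D3:**
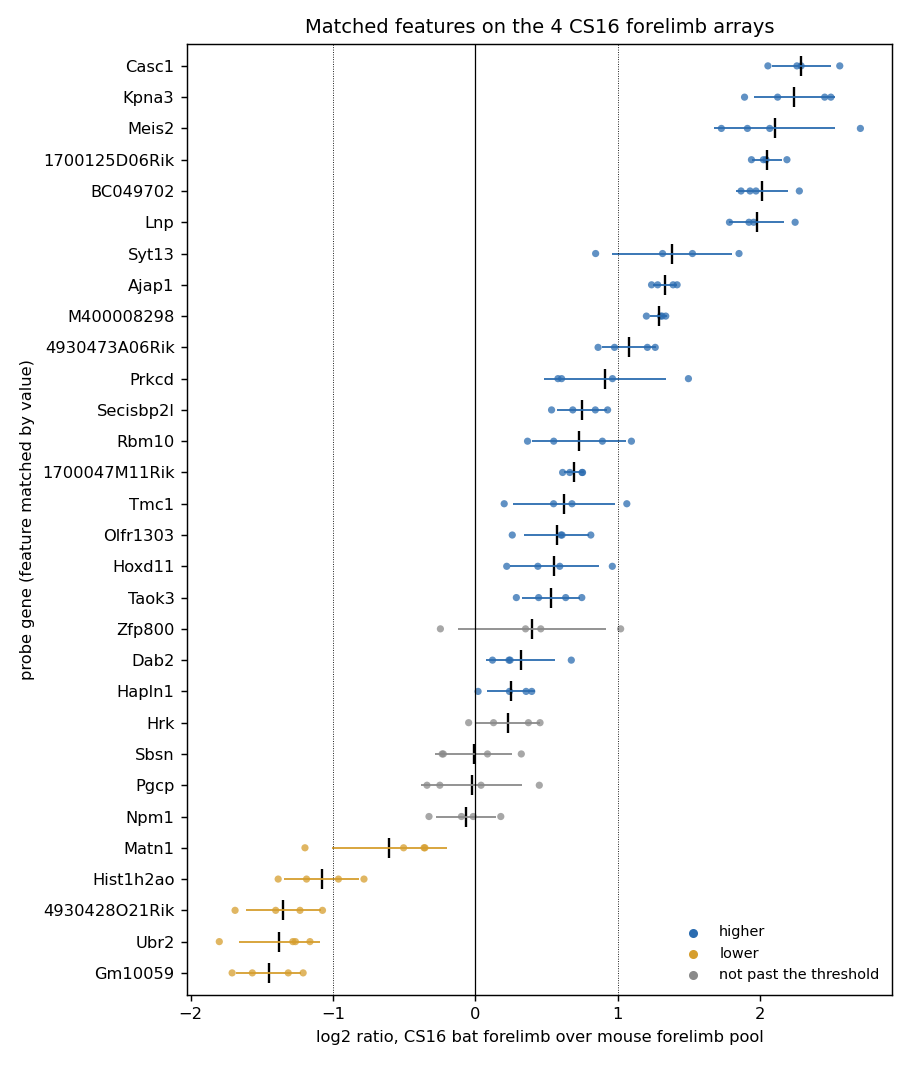
Log2 ratio of the CS16 bat FL over the mouse FL pool for the 30 matched features, sorted by their mean. Points are the 4 arrays, vertical ticks the means and horizontal lines the mean ± SD, with dotted lines at 2-fold. Casc1 is highest at 2.29 and Gm10059 lowest at -1.45, and Sbsn, Pgcp and Npm1 straddle 0.

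Transcription factors and patterning genes come first. Meis2 encodes a homeodomain protein of the TALE class that marks the proximal limb bud of early embryos. By in situ hybridisation the study also finds Meis2 RNA between the digits, in the bat FL from CS16 and in the mouse at E13.5. The matched probe lies in the 5′ untranslated region of the transcript. The ratios of this probe in the CS16 FL were 1.73, 1.91, 2.07 and 2.70, all above 0, with replicate 4 the highest. The mean was 2.10 ± 0.42 (SD, n = 4), a fold of 4.29, with a standard error of 0.15 and an adjusted p of 8.56e-09. It ranked 164 from the top of 12656 features and had no other candidate. The array also held a 3′ Meis2 probe, which was not matched here. For that probe the study reports a far smaller fold of the CS17 FL over the mouse. The value above therefore stands for the 5′ probe alone. The sequence of the 5′ array probe was not used here. The study's primers for the region bound by that probe are printed to show which part of the transcript the value reads.

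5′-Meis2 forward primer: ctatggccaccacgacttc

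5′-Meis2 reverse primer: tgtcagtaggtgttggcagg

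Hoxd11, a gene of the HoxD cluster that patterns the distal limb, had ratios of 0.59, 0.22, 0.96 and 0.44. All 4 were above 0, with a mean of 0.55 ± 0.31, a fold of 1.47 and an adjusted p of 0.0032, and there was no other candidate. The probe is listed under Hoxd11 among the top-ranked probes, and the study places it at the Hoxd11 locus. Its name also stands beside primers for the 3′ coding part of Meis2 in a primer list. Elsewhere the study gives the 3′ Meis2 probe a different name. Replicate 3, the array with the smallest overall spread, gave the highest Hoxd11 value. Zfp800, which encodes a zinc finger protein, had 0.46, 0.35, -0.25 and 1.02, with a mean of 0.40 ± 0.52 and an adjusted p of 0.149. Its replicates lay on both sides of 0. Without replicate 3 its mean was 0.68 with an adjusted p of 0.0301, and without replicate 4 it was 0.14 with an adjusted p of 0.668. Zfp800 had 1 other candidate.

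The matched cartilage matrix genes, Hapln1 and Matn1, lay on opposite sides of the mouse pool. Hapln1 encodes the link protein that holds aggrecan to hyaluronan, and Matn1 encodes matrilin 1, a matrix protein of cartilage. Hapln1 had 0.36, 0.02, 0.24 and 0.40, a mean of 0.25 ± 0.17, a fold of 1.19 and an adjusted p of 0.0149. This call was lost without replicate 1 (0.20, adjusted p = 0.0992) and without replicate 4 (0.19, adjusted p = 0.106). Matn1 had -0.36, -1.20, -0.50 and -0.35, a mean of -0.60 ± 0.40, a fold of 1.52 and an adjusted p of 0.0013. All 4 Matn1 values were below 0, with replicate 2 far lower than the others. Without replicate 2 the Matn1 mean was -0.35 with an adjusted p of 0.0227. Hapln1 had 1 other candidate and Matn1 had 2.

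Both matched kinase genes were higher in the bat FL. Prkcd, which encodes protein kinase C delta, had 1.50, 0.96, 0.58 and 0.60, with a mean of 0.91 ± 0.43, a fold of 1.88 and an adjusted p of 3.89e-05. Every array was above 0, and replicate 1 was the highest. Prkcd had no other candidate. Taok3, a kinase of the STE20 family, had 0.44, 0.63, 0.29 and 0.75, with a mean of 0.53 ± 0.20, a fold of 1.44 and an adjusted p of 4.68e-04, but had 14 other candidates.

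The highest matched features encode proteins with unlike roles. Casc1, which encodes a protein of ciliary dynein, had 2.56, 2.26, 2.05 and 2.29, with a mean of 2.29 ± 0.21, a fold of 4.89, an adjusted p of 3.87e-09 and no other candidate. Kpna3, an importin alpha that carries proteins into the nucleus, had 2.12, 2.45, 1.89 and 2.50, with a mean of 2.24 ± 0.29, a fold of 4.72, an adjusted p of 6.72e-08 and 1 other candidate. All 4 arrays of both genes lay well above 2-fold. They ranked 114 and 130 from the top, behind unnamed features with higher ratios. The uncharacterised transcript 1700125D06Rik had 2.19, 2.02, 2.04 and 1.94, with a mean of 2.05 ± 0.10, a fold of 4.13 and no other candidate. The mean was 2.01 ± 0.18 for BC049702 (5 other candidates) and 1.98 ± 0.19 for Lnp (30 other candidates), which encodes the endoplasmic reticulum protein lunapark.

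Of 5 matched probes for genes of membranes and cell junctions, grouped after their values were seen, Ajap1 and Syt13 had no other candidate. Ajap1, which encodes an adherens junction-associated protein, had 1.39, 1.24, 1.28 and 1.42, with a mean of 1.33 ± 0.09, a fold of 2.51 and an adjusted p of 7.14e-09. Syt13, a synaptotagmin of membrane traffic, had 1.52, 1.85, 0.84 and 1.31, with a mean of 1.38 ± 0.42, a fold of 2.61 and an adjusted p of 9.03e-06. The means of Ajap1 and Syt13 were alike, but the SD of Syt13 was the larger, and replicate 3 was its lowest value. Among weakly matched membrane genes, the mean was 0.62 ± 0.36 for Tmc1, a channel component of inner ear hair cells. It was 0.57 ± 0.23 for the olfactory receptor gene Olfr1303 and 0.32 ± 0.24 for Dab2, an adaptor of endocytosis. All 3 were called higher, with adjusted p-values of 0.0068, 4.58e-04 and 0.0099, and had 9, 22 and 12 other candidates. Tmc1 and Dab2 were no longer called without replicate 4, at 0.42 (adjusted p = 0.084) and 0.17 (adjusted p = 0.152).

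Genes of chromatin, RNA and protein turnover lay on both sides. Hist1h2ao encodes a histone H2A and has near-identical copies in its cluster, which 1 probe may not tell apart. It had -1.38, -1.19, -0.78 and -0.96, with a mean of -1.08 ± 0.26, a fold of 2.11, an adjusted p of 2.23e-06 and no other candidate. Ubr2, a ubiquitin ligase of the N-degron pathway, had -1.80, -1.26, -1.28 and -1.16, with a mean of -1.38 ± 0.29, a fold of 2.6, an adjusted p of 1.47e-05 and 3 other candidates. Both were below 0 on every array. The splicing regulator Rbm10 had 0.55, 1.10, 0.37 and 0.89, with a mean of 0.73 ± 0.33, an adjusted p of 0.0017 and no other candidate. Secisbp2l, named for its likeness to a selenoprotein translation factor, had a mean of 0.75 ± 0.17, an adjusted p of 0.0012 and 5 other candidates. Npm1, the nucleolar protein nucleophosmin, had -0.10, -0.33, 0.18 and -0.02, with a mean of -0.07 ± 0.21, an adjusted p of 0.643 and 7 other candidates.

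None of the genes Hrk, Sbsn and Pgcp was called. Hrk encodes a BH3-only protein that promotes cell death. It had 0.13, 0.37, -0.05 and 0.45, with a mean of 0.23 ± 0.23, an adjusted p of 0.0632 and 17 other candidates. Sbsn encodes suprabasin, a protein of the epidermis, and had 0.08, -0.23, 0.32 and -0.23, with a mean of -0.01 ± 0.27 and a 95% interval from -0.47 to 0.45. Pgcp encodes a secreted carboxypeptidase and had -0.34, -0.25, 0.04 and 0.45, with a mean of -0.03 ± 0.35 and an interval from -0.30 to 0.25. The intervals of Sbsn and Pgcp leave room for differences of that size in either direction.

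Transcripts with only a clone, probe or predicted-gene name fell on both sides. The study lists Gm10059 as a predicted pseudogene of the mouse. Gm10059 was the lowest of all matched features, with -1.21, -1.71, -1.31 and -1.57, a mean of -1.45 ± 0.23, a fold of 2.73 and an adjusted p of 5.37e-06. It ranked 64 from the bottom of all features. 4930428O21Rik had -1.40, -1.69, -1.23 and -1.07, with a mean of -1.35 ± 0.26 and an adjusted p of 2.33e-06. Neither Gm10059 nor 4930428O21Rik had another candidate. On the higher side the means were 1.29 ± 0.06 for the probe M400008298, 1.08 ± 0.19 for 4930473A06Rik and 0.69 ± 0.07 for 1700047M11Rik, each with 4 to 8 other candidates. Of the 5 listed probes without a single match, those of Kctd1 and Mex3b had 3 features each, a further Hist1h2ao probe had 2, and the probes of Cdk3-ps and of an unknown transcript had 0. No value is given for them.

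The CS16 FL was then compared with the other bat autopods. The mouse pool drops out of these differences, since all arrays share it, and both sides of each difference are bat RNA on the same mouse probe. The ratios to the mouse of the 4 groups share that pool and are therefore set side by side as values only. The 1464 features more than 2-fold higher in the CS16 FL had a median ratio of 1.43 there, 1.47 in the CS16 HL, 1.35 in the CS17 FL and 1.27 in the CS17 HL. The 451 lower ones had medians of -1.18, -1.17, -1.08 and -1.16. The CS16 FL median is set by the choice of features. The lowest value of any of the 1464 in another group was 0.29 and the highest value of any of the 451 was -0.46, so none changed sign in the mean of another bat group.

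Between the CS16 FL and the CS16 HL, 0 of 12656 features (0%) had an adjusted p under 0.05 in limma, and 603 (4.76%) had an unadjusted p under 0.05, 357 of them higher in the FL and 246 lower. The fit with the embryo as a block, chosen after the data were seen, also called 0. By its own test (DEDS) on filtered probes with a fold minimum, the study calls Meis2, Hoxd11, Ajap1, Npm1, Prkcd and Sbsn between these limbs. It also reports more Meis2 in the CS16 FL than in the CS16 HL by RT-qPCR. Its array test differs and ran on fewer features, so the counts cannot be set against each other. The median size of the difference was 0.09, with a median standard error of 0.13, and 3 features differed by more than 2-fold in the mean. Against the CS17 FL, 2 features (0.0158%) were called, both lower at CS16. An unadjusted p under 0.05 was reached by 782 (6.18%), 387 of them higher in the CS16 FL and 395 lower. Against the CS17 HL, which differs in stage and limb at once, 2 features (0.0158%) were called, 1 lower and 1 higher in the CS16 FL (0.0079% each), and 1498 (11.8%) had an unadjusted p under 0.05. With no replicate block the counts of features called at an adjusted p under 0.05 were 34 for the CS17 FL and 65 for the CS17 HL. Since the values look already corrected for labelling batch, leaving out the block overstates the degrees of freedom.

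Hapln1 was one of the 2 features that differed from the CS17 FL. Its ratios in the CS17 FL were 1.50, 1.77, 1.62 and 1.71, none of which overlapped the CS16 FL values of 0.02 to 0.40. The difference was -1.40 with a standard error of 0.12 and an adjusted p of 1.13e-04. Its CS17 FL fold to the mouse was used to match it, and the probe had been picked by the study, so this difference is a description. Its means were -0.03 ± 0.10 in the CS16 HL and 0.93 ± 0.18 in the CS17 HL. The order of the means was CS16 HL, CS16 FL, CS17 HL and CS17 FL, and the adjusted p was 0.969 for the CS16 FL against the CS16 HL and 0.0846 against the CS17 HL. The difference from the CS17 HL, -0.68, passed the test with no replicate block (adjusted p = 0.0105), with centred arrays (0.0356) and with quantile normalization (0.00891). It did not pass with any 1 CS16 FL replicate left out, where the adjusted p in limma lay between 0.0946 and 0.225.

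Feature 14081, which has no name here, was the other one. It had 1.62, 1.19, 1.64 and 1.33 in the CS16 FL, with a mean of 1.44 ± 0.22, and 2.76, 2.74, 2.59 and 2.79 in the CS17 FL, with a mean of 2.72 ± 0.09. These groups did not overlap. The difference was -1.27 with a standard error of 0.14 and an adjusted p of 0.0011. Its CS16 HL mean of 1.39 ± 0.22 lay within the spread of the CS16 FL, and its CS17 HL mean of 2.40 ± 0.22 lay above it, by a difference of -0.95 for CS16 FL minus CS17 HL (adjusted p = 0.0448). Feature 21386 was higher in the CS16 FL, at 1.45, 1.56, 1.50 and 1.42, than in the CS17 HL, at 0.70, 1.05, 0.81 and 0.56. That difference was 0.70 with a standard error of 0.10 and an adjusted p of 0.0448. Without any 1 of the 4 CS16 FL arrays, no feature was called against the CS17 HL. Features 14081 and 21386 were named for being called.

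**Figure D4:**
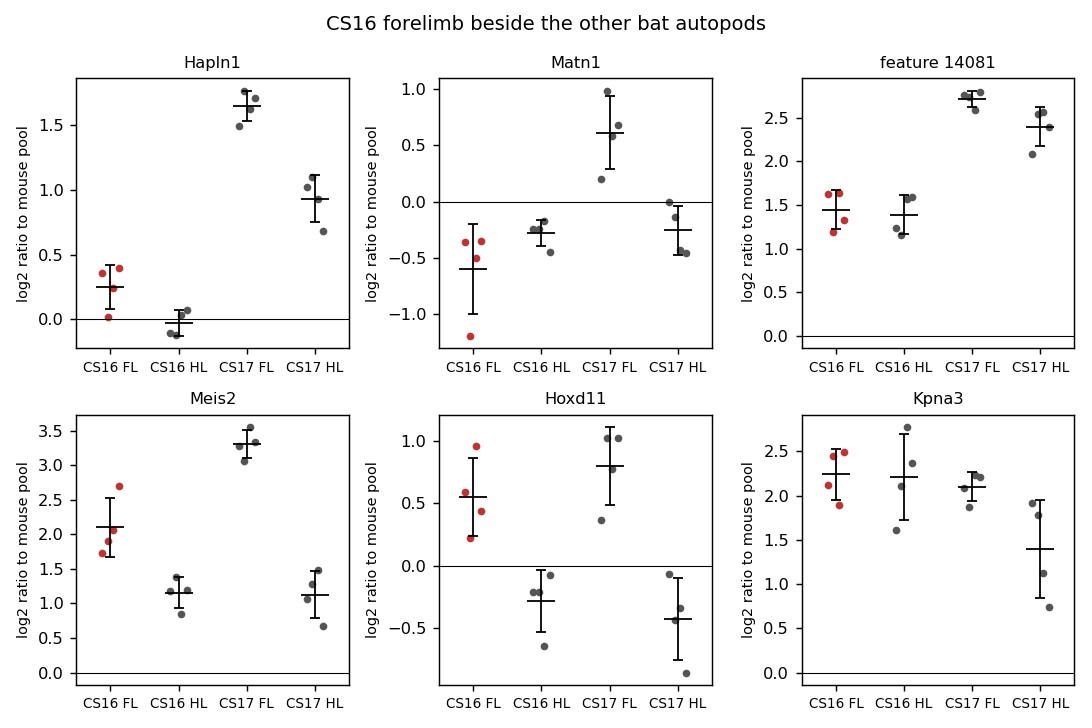
Log2 ratio to the mouse FL pool in each bat group for 6 features. Points are arrays (CS16 FL in red, the other groups in grey), long ticks the means and bars the SD (n = 4 arrays per group). For Hapln1 and feature 14081 the CS16 FL lies below the CS17 FL without overlap, for Hoxd11 it lies above 0 where both HL groups lie below it, and for Kpna3 it overlaps the CS16 HL and the CS17 FL.

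Matn1 showed the same order of the FL stages as Hapln1 without passing the test. Its CS17 FL mean was 0.61 ± 0.33, and CS16 FL minus CS17 FL was -1.22 with a 95% interval from -1.64 to -0.79 and an adjusted p of 0.0609. That difference passed the test with arrays centred on their median (adjusted p = 0.0405), with quantile normalization (0.0177) and with no replicate block (0.00749). It did not pass with any 1 CS16 FL replicate left out, where the adjusted p in limma lay between 0.0729 and 0.181. The Meis2 probe had means of 1.16 ± 0.23 in the CS16 HL, 3.31 ± 0.20 in the CS17 FL and 1.13 ± 0.34 in the CS17 HL. CS16 FL minus CS16 HL was 0.95 with an interval from 0.50 to 1.39 and an adjusted p of 0.924, and CS16 FL minus CS17 FL was -1.21 with an interval from -1.65 to -0.76 and an adjusted p of 0.0678. The latter passed the test with no replicate block (adjusted p = 0.0124), with centred arrays (0.0445) and with quantile normalization (0.00668). Without CS16 FL replicate 4 it was -1.45 and passed (0.00673), but it did not pass without replicate 1 (0.265), 2 (0.323) or 3 (0.11). No array of the CS16 FL overlapped the CS16 HL or the CS17 FL at this probe. The study's own test calls this probe between the CS16 FL and the CS16 HL, as given above. As for Hapln1, every matched feature was named by its folds between limbs and by its CS17 FL fold to the mouse. The study had also picked the probes on these samples. Differences between bat groups at matched features, here and below, are therefore descriptions.

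Hoxd11 was above the mouse pool on all 4 CS16 FL arrays and below it on all 4 arrays of both HL groups, whose means were -0.28 ± 0.25 at CS16 and -0.42 ± 0.33 at CS17. The CS16 FL differed from them by 0.84 and 0.98, with adjusted p-values of 0.969 and 0.147. Its CS17 FL mean of 0.80 ± 0.31 lay within the spread of the CS16 FL. Prkcd had its lowest group mean in the CS16 FL, at 0.91, against 1.93 ± 0.23 in the CS16 HL, 1.59 ± 0.35 in the CS17 FL and 1.10 ± 0.21 in the CS17 HL. None of these differences passed the test in limma. The one from the CS16 HL was -1.02 with an interval from -1.45 to -0.59 and an adjusted p of 0.759. The study's own test calls both Hoxd11 and Prkcd between the CS16 FL and the CS16 HL. Kpna3 had 2.21 ± 0.49 in the CS16 HL, 2.10 ± 0.16 in the CS17 FL and 1.39 ± 0.55 in the CS17 HL. Its difference from the CS16 HL was 0.03 with an interval from -0.55 to 0.60. Of all 30 matched features, Hapln1 was the only one called between the CS16 FL and another bat group in the fit with the replicate block, and that in the comparison with the CS17 FL. With no replicate block, only Meis2, Hoxd11, Hapln1 and Matn1 of the matched features were looked up between bat groups. Meis2 (adjusted p = 0.0315 in limma) and Hoxd11 (0.028) were then also called against the CS17 HL. The calls of Hapln1, Matn1 and Meis2 in that setting are given above.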

How the data were processed

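RNA of CS16 and CS17 bat FL and HL autopods was hybridised to 16 two-channel arrays against 1 mouse FL pool. The authors scanned the slides with GenePix software, corrected background and normalised in R, and list filters for poor features and low variance, imputation and a correction for batch. Which of these the deposited log2 ratios include is not stated. Batch means varied within a feature by a median SD of 0.028, below the 0.08 that arrays free of batch effects would show. The SE therefore leaves out variation between batches.

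Values were used as deposited with the sign turned. Array medians, after turning, lay between -0.17 and -0.04. The model was fitted in limma 3.58.1 (lmFit, eBayes, R 4.3.3) over all 16 arrays, with 4 group means and the labelling batch as the replicate block (9 residual and 5.64 prior degrees of freedom) and Benjamini-Hochberg adjustment over 12656 features. Samples are paired by replicate number, since per the labels each number was a labelling batch. Paired deviations of the CS16 FL correlated between -0.55 and -0.08. Scripts were tested on simulated data. Tables were made with pandas 2.3.3 and numpy 2.4.6 in Python 3.11.15, and plots with matplotlib 3.10.9.

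Named were all features matched to a listed probe, the features called between bat groups and, by number, the highest and lowest feature. The naming rule asked for 6 features at each end, and the other 5 are given as ranges because the deposited rows carry no gene names. For the same reason 9 gene lists and 7 marker lists were not analysed here. Members and lists were chosen with earlier results of these data known. The study's DEDS test was not used here. Alternatives were no replicate block, only the 4 CS16 FL or the 8 CS16 arrays, quantile normalization, centring of each array on its median, the 5200 features with the largest variance, every row counted, robust variance moderation, limma's treat test against 2-fold, the embryo as a block and each CS16 FL replicate left out in turn.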

Additional observations from a re-analysis of the deposited data

Results flagged for a closer look

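Over the named features and the summary values of the arrays, 2 of 148 groups of 4 arrays held a value that stood apart from the other 3, where chance flags about 1 in 20 groups. These were CS17 FL replicate 4 of Ubr2, at -1.65, and CS17 HL replicate 1 of Ajap1, at 0.90. Neither is a CS16 FL array.

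Some differences between the CS16 FL and another bat group stood out because the difference was called or because all arrays of one group lay above the mouse pool and all of the other below it. Hapln1 (CS16 FL minus CS17 FL -1.40) and feature 14081 (-1.27 against the CS17 FL and -0.95 against the CS17 HL) were called, as was feature 21386 (0.70 against the CS17 HL). Differences of the others missed an adjusted p of 0.05 in limma. These others, all matched features and so descriptions only, lay on opposite sides of the pool. They were Hoxd11 (0.84 against the CS16 HL, adjusted p = 0.969, and 0.98 against the CS17 HL, adjusted p = 0.147), Matn1 (-1.22 against the CS17 FL, adjusted p = 0.0609), Dab2 (0.65 against the CS17 HL, adjusted p = 0.153) and Olfr1303 (0.74 against the CS17 HL, adjusted p = 0.153).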

How the results depend on the processing

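The count of 9299 features lay between 8427 and 9795 under the other settings, except with the 5200 most variable features (3961, of which 2377 higher and 1584 lower), where fewer features were tested. The count of 1915 past 2-fold lay between 1798 and 2134 with 1 CS16 FL replicate left out, and was 977 (854 higher, 123 lower) with the treat test against 2-fold, which asks for more than a mean past 2-fold. The 5200 set held 255 of the lower ones. Against the CS17 FL, the 2 calls became 34 with no replicate block, 9 with centred arrays, 15 with quantile normalization and 2 to 4 with 1 replicate left out. Against the CS17 HL they became 65 with no replicate block, 6 with quantile normalization and 0 without any 1 replicate. The cause was not tested. Quantile normalization and the embryo block were added to these comparisons after the data were seen. The CS16 HL count stayed 0 with no replicate block, centring, quantile normalization, the embryo block and each CS16 FL replicate left out. Calls between bat groups were not counted for the 5200 most variable features, every row or robust moderation.

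Of 364 alternative values of single features, 326 kept direction and side of the threshold, 16 gained a call, 13 lost one and 9 changed sign, none of the last at a called value. Centring, which moved the median of all features by 0.07, turned Npm1 to 0.0042, Sbsn to 0.0566 and Pgcp to 0.0442. With 1 CS16 FL replicate left out, the ratio ranged from -0.123 to 0.0183 for Npm1, from -0.171 to 0.0991 for Sbsn (0.0965 without replicate 2) and from -0.212 to 0.114 for Pgcp (0.0775 without replicate 2), and CS16 FL minus CS16 HL of feature 14081 ranged from -0.0503 to 0.135. Of the 9299 calls, 8724 remained with centring, 9211 with quantile normalization and 8321 to 8695 with 1 replicate left out. Hrk, at an adjusted p of 0.0632, was called with centring (0.0213), with no replicate block (0.0358) and without replicate 3 (0.0242). Depth is unknown for ratios, and 4 arrays limit the precision.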
